A study of Homo sapiens with 17 samples.

Results

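The 32 genes described here encode the machinery by which cells make and handle cholesterol and fatty acids, and they were taken by symbol from the 57820 genes listed in every expression table. Of them, 24 belong to the sterol side, namely 16 enzymes of cholesterol synthesis, 5 regulators and 3 transport proteins, and 8 belong to the fatty acid side. All 32 passed the filter on low counts in every comparison. Poly-A RNA was sequenced from 17 libraries of 2 human cancer lines, KYSE140 from an esophageal and SKMES1 from a lung squamous cell carcinoma. The study asked which genes respond when the transcription factor SOX2, or e1, a noncoding element near the SOX2 gene, is silenced or activated.

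KYSE140 gave 13 libraries. For e1 repression, cells carried CRISPRi (a dead Cas9 fused to transcriptional repressor domains) with guide 1 or 2 to e1 (n = 2), and their controls carried the same repressor with a negative-control guide without a genomic target (n = 2). For SOX2 knockout, cells carried Cas9 with guide 2, 3 or 4 to SOX2 (n = 3), and their controls carried Cas9 with a guide to AAVS1 or to a chromosome 2 site called Chr2.2 (n = 2). ARV-771, a degrader of BET bromodomain proteins, was given at 0.5 µM for 6 h to cultures A and B (n = 2), with DMSO for 6 h as its control (n = 2). SKMES1 gave 4 libraries, all with CRISPRa (a dead Cas9 with activator domains): guide 1 or 3 to e1 (n = 2, e1 activation) and a negative-control guide 1 or 2 (n = 2). All CRISPR cells were infected with lentivirus, selected and used as pools, so a knockout library may also have held cells without a disrupting edit. Replicates were different guides or cultures, and p-values measure only the spread between these libraries. The paper describes the replicates of e1 repression and e1 activation as biologically independent. For the other groups the spread may be technical.

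Total expected counts ranged from 7260730 to 15781463 per library. SOX2 had 379 and 365 TPM (a level corrected for transcript length and library size) in CRISPRi controls, against 120 and 128 TPM once e1 was repressed. The knockout controls had 397 and 428 TPM, against 103, 125 and 221 TPM under SOX2 guides 2, 3 and 4. It was at 236 and 223 TPM in DMSO and 9.80 and 10.5 TPM in ARV-771, and at 1.68 and 1.53 TPM in CRISPRa controls and 224 and 316 TPM in e1 activation. Of the 7 squamous markers, KRT5 was at 2398 to 8392 TPM in KYSE140 but at 0.05 to 1.26 TPM in SKMES1, where TP63 was at 1.87 to 3.79 TPM, DSG3 at 0 to 0.1 TPM and KRT6A at 0.32 to 19.2 TPM. SFN, in contrast, was at 321 to 812 TPM in the 4 SKMES1 libraries, and KRT17 and KRT14 ranged there from 2.73 to 977 TPM and from 0 to 118 TPM. The line labelled squamous thus held some of these markers and lacked or nearly lacked others. The second CRISPRa control stood apart from the first, with KRT17 at 977 TPM against 2.73 TPM. Of the 4 leukocyte markers, PTPRC, CD3E and CD79A stayed at or below 0.95 TPM in all libraries, whereas CD68 was at 36.1 to 132 TPM in SKMES1 and rose in KYSE140 with e1 repression, SOX2 knockout and ARV-771.

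Cholesterol is built from acetyl-CoA by way of mevalonate, isoprenoid units, squalene and lanosterol. When membrane sterol runs low, the carrier SCAP takes the membrane-bound factors SREBF1 and SREBF2 to the Golgi, where they are cut and released to switch on synthesis genes, and INSIG1 and INSIG2 hold SCAP back when sterol is plentiful. Fatty acid synthesis draws on the same acetyl-CoA, and its genes answer mainly to SREBF1, whereas ABCA1, which exports cholesterol, is a textbook target of the liver X receptors.

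Promoter windows were searched for short motifs, as a description without a test. The share given beside each count is over all genes, not over genes matched in expression or base content. RefSeq windows on GRCh38.p14, from 250 bases before to 50 bases after a gene's start, were at hand for 29 of the 32 members; FASN, FDFT1 and SQLE had none. Both strands were searched, and a gene counted when any of its windows held the letters. The box CCAAT, the motif of NF-Y, a cofactor of the SREBF proteins, stood in 20 of 29 members (15 of 22 on the sterol side, 5 of 7 on the fatty acid side), and 39.7% of all 27305 genes in the table held it. The Sp1 box GGGCGG stood in 28 of 29 members, beside 48.3% of all genes, and only NSDHL lacked it. The E-box CACGTG was in 5 of 29 members, beside 8.77% of all genes. The strict sterol regulatory element TCACNCCAC was found in 1 of 29 members, SREBF2, beside 1.39% of all genes. These matches are descriptions of letters, not mapped binding sites.

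The windows of 4 genes are printed 5′ to 3′ on the gene's strand, with TCACNCCAC, CCAAT and GGGCGG matches on either strand in capitals (on the other strand CCAAT reads as ATTGG and GGGCGG as CCGCCC; adjoining or overlapping matches run together). SREBF2 (chr22:41832855-41833154, plus strand) is shown because, of the 29 members searched, it alone held an exact TCACNCCAC match, followed by an NF-Y box. Looser forms of the sterol element were not searched, so the other members may hold them. HMGCS1 (chr5:43313363-43313662, minus strand), DHCR7 (chr11:71448344-71448643, minus strand) and MVK (chr12:109573544-109573843, plus strand) are 3 of the enzymes that were lower in SKMES1, with 2, 2 and 5 NF-Y boxes. Of the 12 lower enzymes with a window, 10 held this box, beside 39.7% of all genes, and CYP51A1 and PMVK lacked it. LSS and NSDHL, which were not called lower, held it too.
SREBF2: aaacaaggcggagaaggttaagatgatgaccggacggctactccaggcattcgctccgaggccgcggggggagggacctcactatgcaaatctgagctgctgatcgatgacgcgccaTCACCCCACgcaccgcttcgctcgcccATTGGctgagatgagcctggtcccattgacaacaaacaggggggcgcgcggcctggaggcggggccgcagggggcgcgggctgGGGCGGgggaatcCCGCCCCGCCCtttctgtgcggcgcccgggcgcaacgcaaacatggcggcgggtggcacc
HMGCS1: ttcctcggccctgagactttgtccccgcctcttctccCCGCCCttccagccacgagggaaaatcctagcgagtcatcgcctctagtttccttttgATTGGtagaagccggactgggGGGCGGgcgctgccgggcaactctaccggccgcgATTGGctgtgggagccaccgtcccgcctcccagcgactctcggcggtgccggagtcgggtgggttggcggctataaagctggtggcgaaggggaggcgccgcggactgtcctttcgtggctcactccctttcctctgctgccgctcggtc
DHCR7: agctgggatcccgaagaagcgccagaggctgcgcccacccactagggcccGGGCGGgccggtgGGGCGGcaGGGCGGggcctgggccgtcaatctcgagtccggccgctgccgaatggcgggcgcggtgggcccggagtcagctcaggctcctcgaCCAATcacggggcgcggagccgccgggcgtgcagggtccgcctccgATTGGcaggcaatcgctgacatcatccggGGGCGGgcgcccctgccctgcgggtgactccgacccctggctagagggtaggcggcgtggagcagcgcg
MVK: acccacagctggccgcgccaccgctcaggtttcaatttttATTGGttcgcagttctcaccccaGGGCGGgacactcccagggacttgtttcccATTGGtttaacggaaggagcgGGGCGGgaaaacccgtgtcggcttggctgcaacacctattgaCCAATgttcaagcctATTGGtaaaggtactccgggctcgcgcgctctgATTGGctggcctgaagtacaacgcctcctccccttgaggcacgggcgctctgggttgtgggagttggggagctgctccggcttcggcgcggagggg

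In KYSE140 CRISPRi controls the members spanned levels from 3.39 ± 0.17 TPM (SD, n = 2) for ABCA1 to 726 ± 17.7 TPM (SD, n = 2) for DHCR7, the enzyme of the last step of one branch of cholesterol synthesis. FDPS, which makes farnesyl diphosphate, came next at 308 ± 7.21 TPM (SD, n = 2). The fatty acid genes FASN, the fatty acid synthase, at 151 ± 7.40 TPM, ACLY, which supplies cytosolic acetyl-CoA, at 143 ± 5.59 TPM, and SCD, the stearoyl-CoA desaturase, at 136 ± 9.80 TPM (SD, n = 2 each) followed, and these neighbours lay within about their spread of each other. Summed over the 16 synthesis enzymes, TPM was 1850 to 1889 in CRISPRi controls, 2088 to 2095 in knockout controls and 2109 to 2163 in DMSO, against 642 to 722 in the SKMES1 controls. Much of this gap came from a single gene: DHCR7 held 739 and 714 TPM in the CRISPRi controls and 60.4 and 46.4 TPM in the SKMES1 controls. The 8 fatty acid genes summed to 590.2 and 591 TPM in CRISPRi controls and to 545 and 580.5 TPM in SKMES1 controls, so on that side the totals of the lines nearly met.

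**Figure D1:**
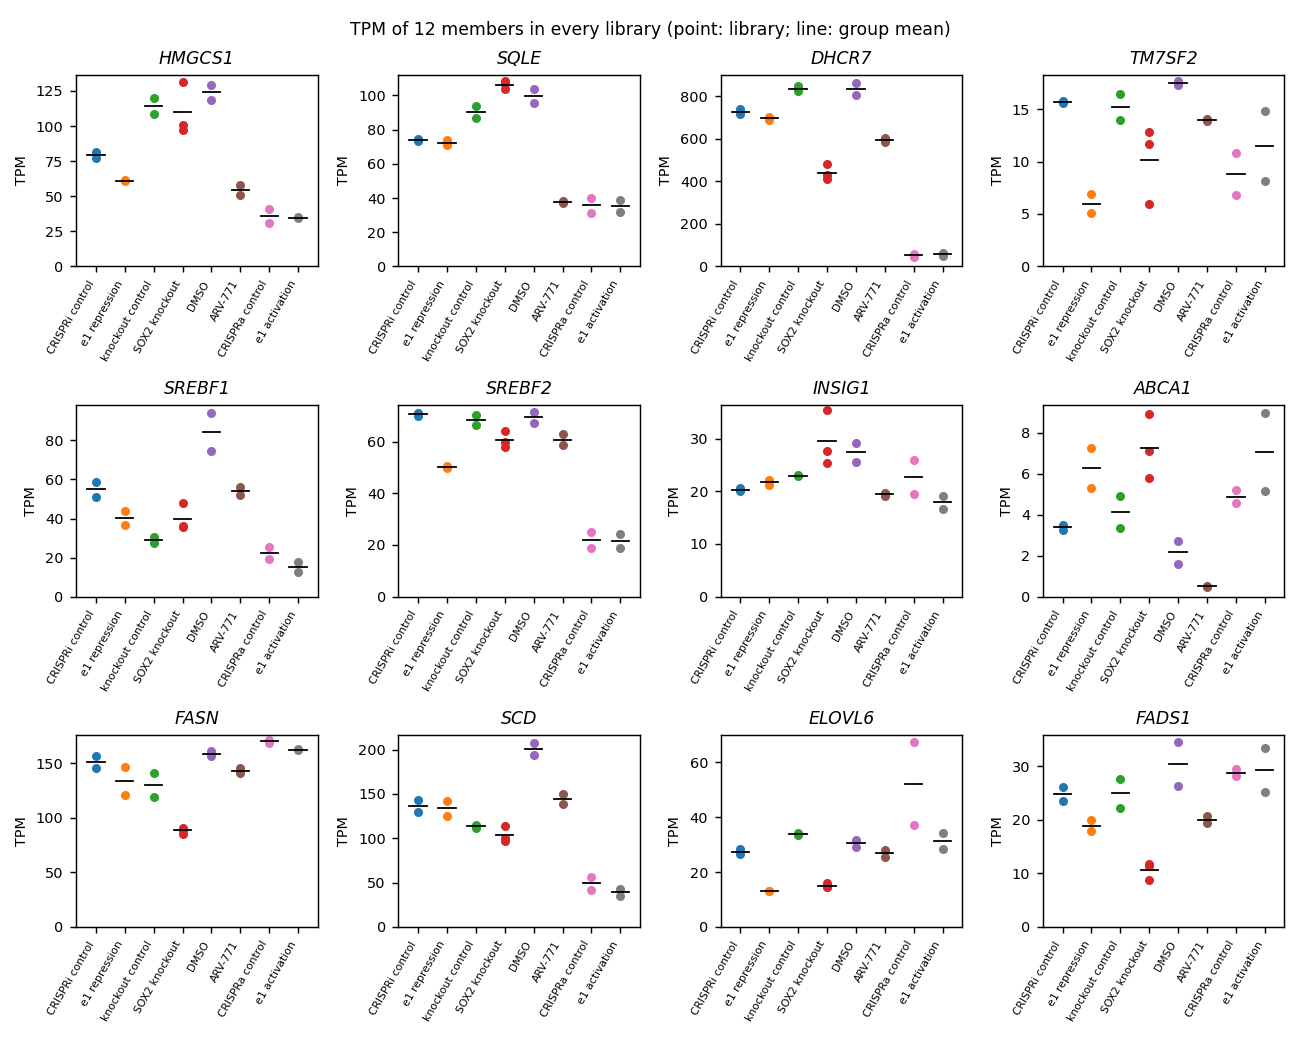
TPM of 12 members (y axis, from 0) in each of the 17 libraries, by group (x axis); each point is a library and each line a group mean. ELOVL6 drops with e1 repression and SOX2 knockout, and DHCR7 is at 46.4 to 64.5 TPM in the 4 SKMES1 libraries, below the 409 to 860.3 TPM of all KYSE140 libraries.

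The 3 KYSE140 control groups did not carry these genes at the same level. They differed in what they carried or were given, CRISPRi, Cas9 or DMSO for 6 h. Whether they also differed in handling is not labelled, and the 2 cannot be told apart. A gene was called when its Benjamini-Hochberg adjusted p, over all genes in the edgeR quasi-likelihood test, was under 0.05 and its fold change over 1.5; with 3 control groups, the largest pairwise fold had to pass. By this rule 9 of 32 members differed, 7 sterol and 2 fatty acid genes, beside 16.5% of all genes tested. SREBF1 was at 58.8 and 51.2 TPM in CRISPRi controls, 30.7 and 27.4 TPM in knockout controls and 74.4 and 94.2 TPM in DMSO, 3 ranges that did not overlap. It spanned 1.52 on the log2 scale between groups (edgeR adjusted p = 3.46e-11), the widest span among the members. HMGCS1, which makes the HMG-CoA from which mevalonate comes, was at 77.5 and 81.2 TPM in CRISPRi controls, 109 and 119.8 TPM in knockout controls and 119 and 129 TPM in DMSO. SCD was at 143 and 129 TPM, 112 and 114 TPM, and 194 and 208 TPM in the same order. IDI1, MVK, LSS, MVD and FADS2 also differed, with log2 spans of 0.61 to 0.82. The exporter ABCA1 ran the other way, at 3.27 and 3.51 TPM in CRISPRi controls and 1.61 and 2.72 TPM in DMSO, a log2 difference of -0.72 (edgeR adjusted p = 0.000136). Each treatment was therefore set only against its own controls.

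**Figure D2:**
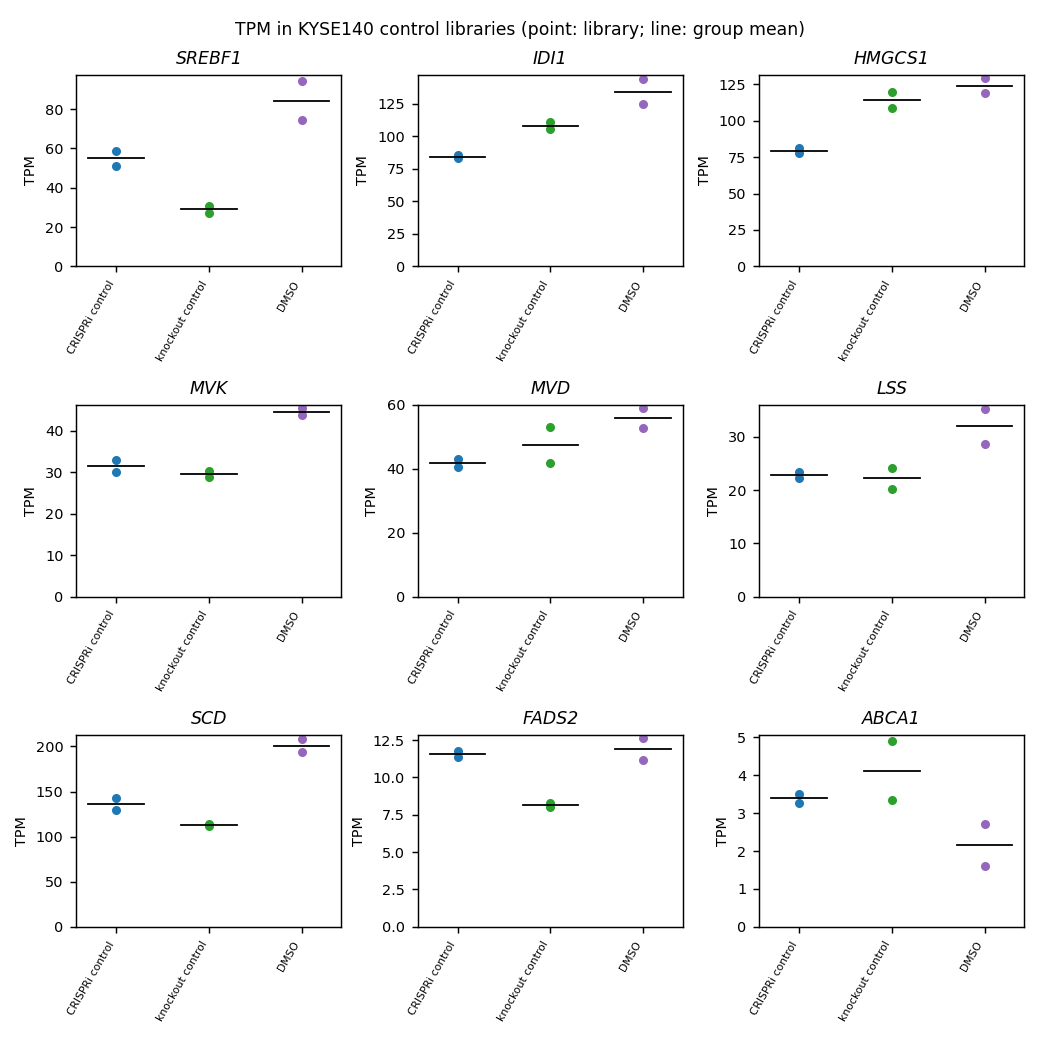
TPM (y axis, from 0) of the 9 members that differed among the KYSE140 control groups; each point is a library, each line a group mean, n = 2 per group. The DMSO mean is the highest of the 3 for every gene shown except ABCA1, for which it is the lowest.

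With e1 repressed, the sterol C14-reductase TM7SF2, the elongase ELOVL6 and the carrier STARD4 were lower, and the transporters ABCA1 and NPC1 were higher. Among the 24 sterol members, 2 rose and 2 fell, and of the 8 fatty acid members 1 fell, beside 20% of all 13792 genes tested called (9.3% higher and 10.7% lower). The median log2 fold change was -0.09 for the sterol and -0.22 for the fatty acid members, and 0.00 for all genes tested to that precision. In these bulk libraries fewer cells expressing a gene and less RNA per cell cannot be told apart.

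TM7SF2, a sterol C14-reductase (chr11:64879317-64883856, plus strand, GRCh37), was at 15.8 and 15.6 TPM in the control libraries, against 6.92 and 5.07 TPM under e1 guides. The groups were far apart, and the log2 fold change of -1.89 ± 0.20 (SE, edgeR adjusted p = 1.85e-06) was the largest among the members. It was called under all 17 alternative settings. The fatty acid elongase ELOVL6 (chr4:110967002-111120355, minus strand) was at 26.5 and 28.3 TPM in the control libraries, against 12.98 and 13.09 TPM under e1 guides, with no overlap. Its log2 fold change was -1.13 ± 0.09 (SE, edgeR adjusted p = 4.95e-08), again called under all 17 alternatives.

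All 3 transport genes passed the rule, in opposite directions. ABCA1 (chr9:107543287-107690436, minus strand) rose from 3.27 and 3.51 TPM to 5.28 and 7.23 TPM, a log2 fold change of 0.84 ± 0.11 (SE, edgeR adjusted p = 1.48e-05). NPC1, which moves cholesterol out of lysosomes, rose from 25.5 and 33.7 TPM to 38.8 and 43.0 TPM, by 0.68 ± 0.08 (SE, edgeR adjusted p = 4.91e-06). In both genes every library with e1 guides was above every control, although NPC1 shares reads with other genes in 15 of 17 libraries. STARD4, a cytosolic sterol carrier, fell from 13.3 and 15.6 TPM to 10.61 and 12.03 TPM, with a log2 fold change of -0.63 ± 0.14 (SE, edgeR adjusted p = 0.00149). Its call was the least firm, held under 11 of 17 alternatives: it was lost without the second control (-0.46) and without e1 guide 1 (-0.50). ABCA1 and NPC1 were not called in limma on log2(TPM + 1), with adjusted p of 0.0699 and 0.0783.

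Several regulators and enzymes shifted by less than the required fold. SREBF2, the main factor for sterol genes, was at 70.1 and 71.0 TPM in the control libraries, against 50.5 and 49.9 TPM under e1 guides, and SREBF1 at 58.8 and 51.2 TPM against 36.5 and 43.7 TPM. Their log2 fold changes were -0.48 ± 0.05 and -0.48 ± 0.08 (SE, edgeR adjusted p = 2.62e-06 and 0.000233), and libraries of the groups did not overlap. HMGCS1 had -0.36 ± 0.06 (SE). SREBF1 passed the rule without the second control (-0.59), and PMVK without e1 guide 2 (-0.60). In all, 15 of 32 members had an adjusted p under 0.05, a share of 46.9% beside 44.3% of all genes. Of these members 2 were higher and 13 lower, beside 22.2% higher and 22.1% lower of all genes. SQLE, the squalene epoxidase, at 73.6 and 74.8 TPM against 73.8 and 70.8 TPM, and SCD had log2 fold changes of 0.00 ± 0.06 and -0.01 ± 0.06 (SE). The fatty acid genes all had a negative log2 fold change, from -1.13 to -0.01, but 4 of 8 had an adjusted p under 0.05. Scaling to the 13 mitochondrially encoded protein genes moved the median of genes with at least 50 counts to 0.36, and the sterol median then read 0.26 and the fatty acid median 0.13, so the sign of these medians depends on the scaling.

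Other genes of the pathways gave similar counts: 1 rose and 2 fell of 12 tested on the sterol side, and 1 rose and 4 fell of 19 on the fatty acid side. ABCG1, a cholesterol exporter like ABCA1, had a log2 fold change of -1.60 where ABCA1 rose, and SOAT1, which esterifies cholesterol, had 0.94. ACSL1, a long-chain acyl-CoA synthetase, had -0.98 and FADS3 0.65. The summed squamous markers were at 7319 to 7364 TPM in the controls and 13835 to 14120 TPM with e1 guides, with 4 of 7 markers higher and 1 lower, and the leukocyte marker CD68 rose from 0.84 to 1.08 TPM to 24.4 to 25.8 TPM. The fibroblast markers summed to 13.5 to 15.9 TPM against 37.4 to 39.1 TPM, nearly all of it COL1A1, with COL1A2 at 0 TPM in these libraries, and the endothelial sum was at most 0.53 TPM. Their part in the values above was not tested.

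SOX2 knockout also moved ABCA1, NPC1 and ELOVL6 in the directions seen with e1 repression, and in addition lowered DHCR7. Of the sterol members 3 rose and 2 fell, and of the fatty acid members 2 fell, beside 29.7% of all 13978 genes tested called (16.3% higher and 13.5% lower). The median log2 fold change was -0.03 for sterol and -0.19 for fatty acid members, and -0.01 for all genes tested.

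DHCR7 (chr11:71139239-71163914, minus strand) was at 847 and 824 TPM in the control libraries, against 429.6, 409 and 480.0 TPM under SOX2 guides 2, 3 and 4, so that all knockout libraries lay well below both controls. The log2 fold change was -0.75 ± 0.07 (SE, edgeR adjusted p = 3.44e-06). HSD17B7, a reductase of the same pathway whose counts were shared with other genes in all 17 libraries, went from 28.2 and 35.6 TPM to 14.6, 15.4 and 16.9 TPM, with -0.77 ± 0.14 (SE, edgeR adjusted p = 0.000674). These were the 2 enzymes of 16 that passed the rule.

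ABCA1 was at 3.34 and 4.90 TPM in the control libraries, against 5.77, 7.10 and 8.89 TPM under SOX2 guides, without overlap. Its log2 fold change was 1.26 ± 0.14 (SE, edgeR adjusted p = 1.14e-05), the largest rise among the members, though limma on log2(TPM + 1) gave an adjusted p of 0.0585. NPC1 was at 29.2 and 34.9 TPM in the control libraries, against 46.9, 40.1 and 55.5 TPM under SOX2 guides, with 0.70 ± 0.09 (SE, edgeR adjusted p = 4.38e-05). INSIG2, which retains SCAP, passed the rule with 0.87 ± 0.19 (SE, edgeR adjusted p = 0.00211), yet its TPM of 3.21 and 6.16 in the controls and 5.80, 7.90 and 6.53 with SOX2 guides overlapped, and limma on log2(TPM + 1) gave an adjusted p of 0.193. The highest ABCA1 and NPC1 levels were in the library of guide 4, which also had the most SOX2 RNA of the knockout libraries. This is 1 library, its RNA does not measure SOX2 protein, and a link between these levels was not tested.

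On the fatty acid side, ELOVL6 was at 34.2 and 33.5 TPM in the control libraries, against 14.5, 14.6 and 15.98 TPM under SOX2 guides, a log2 fold change of -0.84 ± 0.09 (SE, edgeR adjusted p = 8.24e-06). FADS1, the delta-5 desaturase (chr11:61567099-61596790, minus strand), was at 27.7 and 22.2 TPM in the control libraries, against 8.68, 11.7 and 11.5 TPM under SOX2 guides, with -0.89 ± 0.10 (SE, edgeR adjusted p = 1.77e-05). Both groups of values were fully separate. FADS1 lies inside the span of FADS2 (chr11:61560452-61634826) on the other strand, and as the strand setting of the counting was not stated, reads of the pair may not be fully told apart. FASN was at 141 and 119 TPM in the control libraries, against 88.9, 90.7 and 85.4 TPM under SOX2 guides, and its log2 fold change of -0.42 ± 0.08 (SE, edgeR adjusted p = 0.000668) was under the required fold.

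The other regulators and the early enzymes did not reach the required fold. SREBF2 had a log2 fold change of 0.02 ± 0.07 (SE), HMGCS1 0.07 ± 0.10, SQLE 0.40 ± 0.07, INSIG1 0.46 ± 0.12 and SREBF1 0.40 ± 0.10. Of 24 sterol members, 15 had an adjusted p under 0.05, a share of 62.5% beside 51% of all genes (26.4% higher and 24.6% lower). Of these members 8 were higher and 7 lower, so the sterol genes as a whole did not move one way. TM7SF2, not called with all libraries, passed without guide 4 (-0.66). Scaling to library size moved the median of genes with at least 50 counts to -0.21 and the split of called sterol members from 3 higher and 2 lower to 2 higher and 4 lower, beside 12.2% higher and 21.5% lower of all genes. Limma on log2(TPM + 1) gave 0 higher and 4 lower, beside 10.4% and 16.4%. The fatty acid median stayed below 0 under these scalings and the mitochondrial one, between -0.39 and -0.14.

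Of the other pathway genes, 2 rose and 3 fell of 12 on the sterol side and 3 rose and 3 fell of 19 on the fatty acid side. LPIN1, a phosphatidate phosphatase, had a log2 fold change of -1.14, SOAT1 1.00, the elongase ELOVL1 0.84 and FADS3 0.72. The exporter ABCG1 was again called lower where ABCA1 rose, with -0.85. The squamous marker sum was 9070 to 9140 TPM in the controls and 38954 to 49030.5 TPM with SOX2 guides, with 6 of 7 markers higher and TP63 lower, and CD68 was at 3.24 to 3.93 TPM against 53.8 to 70.2 TPM. The fibroblast sum was 10.2 to 19.2 TPM against 39.5 to 44.1 TPM, again mostly COL1A1, and the endothelial sum at most 0.82 TPM. The part of these shifts in the values above was not tested.

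**Figure D3:**
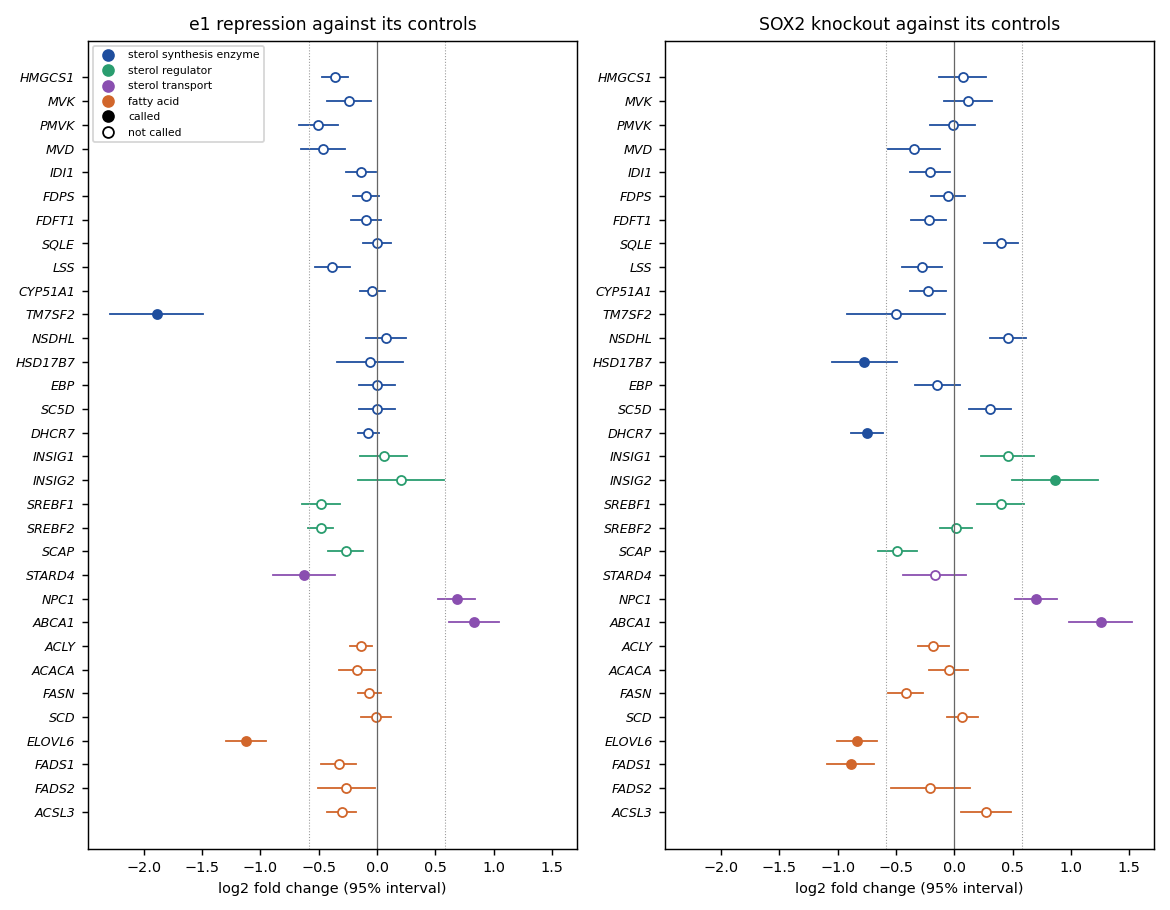
Log2 fold change (x axis) of each of the 32 members in e1 repression (left) and SOX2 knockout (right) against their own controls. Bars are approximate 95% intervals, narrower than the F test implies, filled points passed the rule, and dotted lines mark a 1.5-fold change. ABCA1 and NPC1 lie to the right and ELOVL6 to the left in both panels, whereas TM7SF2 is far to the left only for e1 repression (-1.89 against -0.50) and DHCR7 only for the knockout (-0.75 against -0.07); the difference itself was tested and passed the rule for both genes.

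Whether the perturbations differed was tested on the difference of the log2 fold changes in a single fit of 9 libraries. The difference passed the rule for 4 of 32 members, all on the sterol side, beside 16.6% of all genes tested. The fatty acid gene FADS1 missed the required fold narrowly, with a difference of 0.58 ± 0.13 (SE, edgeR adjusted p = 0.00425). TM7SF2 was lowered more by e1 repression, with a difference of -1.37 ± 0.32 (SE, edgeR adjusted p = 0.00552), and the difference for SREBF1 was -0.86 ± 0.15 (SE, edgeR adjusted p = 0.000767). DHCR7 was lowered more by the knockout, with a difference of 0.69 ± 0.09 (SE, edgeR adjusted p = 7.64e-05), as was HSD17B7, with 0.73 ± 0.21 (SE, edgeR adjusted p = 0.0175). SREBF1 was at 40.1 ± 5.11 TPM (SD, n = 2) under e1 repression, below its controls, and at 39.9 ± 6.94 TPM (SD, n = 3) in the knockout, above its own. For ELOVL6 and NPC1 the differences were -0.27 ± 0.12 and 0.00 ± 0.12 (SE), and for ABCA1 -0.40 ± 0.20 (SE, edgeR adjusted p = 0.15), none of which passed.

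After 6 h of ARV-771 the sterol genes split: FDPS and PMVK, the phosphomevalonate kinase, ran ahead of the bulk of genes, while SQLE, MVK, the mevalonate kinase, INSIG2 and ABCA1 fell behind it. Each direction has to be read against the scaling used. With TMM scaling, which sets the bulk of genes at no change, 3 of 24 sterol members rose and 4 fell, and 1 of 8 fatty acid members rose, beside 52.9% of all 13500 genes tested called (21.2% higher and 31.7% lower). Scaling to library size moved the median of genes with at least 50 counts to -0.45, TPM to -0.62 and the mitochondrial genes to -0.99. The sterol members called were then 0 higher and 8 lower, 0 higher and 11 lower, and 0 higher and 17 lower, beside 45%, 48% and 66.6% of all genes lower under the same scalings. Their 17 of 24, or 70.8%, under mitochondrial scaling was thus near the share of all genes.

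Of the 32 members, 9 had a negative log2 fold change under all 4 scalings, and 4 of these, SQLE, MVK, INSIG2 and ABCA1, were called lower under each. These were already the 9 lower members, and the 4 called lower, with TMM. The other scalings set the bulk of genes lower than TMM does, so that they kept these directions adds little to the TMM result. SQLE was at 95.4 and 103.5 TPM in DMSO and at 36.8 and 38.5 TPM in ARV-771, with a log2 fold change of -0.75 ± 0.06 (SE, edgeR adjusted p = 2.71e-11). MVK was at 43.7 and 45.4 TPM against 16.3 and 19.1 TPM, with -0.67 ± 0.08 (SE, edgeR adjusted p = 1.24e-07). In both enzymes the treated libraries lay below either DMSO library by a wide margin. INSIG2 was at 4.54 and 5.46 TPM in DMSO and 2.29 and 0.83 TPM in ARV-771, with -1.46 ± 0.26 (SE, edgeR adjusted p = 1.98e-05). ABCA1 was at 1.61 and 2.72 TPM against 0.51 and 0.49 TPM, with -1.44 ± 0.20 (SE, edgeR adjusted p = 8.02e-07), opposite in sign to its change in e1 repression and SOX2 knockout. The difference between these comparisons was not tested. The other 5 genes below 0 under every scaling were HMGCS1, CYP51A1, NSDHL, HSD17B7 and STARD4. HMGCS1 was at 119 and 129 TPM in DMSO and at 51.2 and 57.8 TPM in ARV-771, and its TMM log2 fold change of -0.50 ± 0.06 (SE, edgeR adjusted p = 1.59e-08) was just under the required fold.

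The genes called higher with TMM changed sign or lost the call elsewhere. FDPS was at 288 and 306 TPM in DMSO and 329 and 338 TPM in ARV-771, and its log2 fold change was 0.83 ± 0.05 (SE, edgeR adjusted p = 2.67e-13) with TMM, 0.37 with library size, 0.17 on log2(TPM + 1) and -0.17 with mitochondrial scaling. Its TPM was higher in both treated libraries, whereas the median gene fell on that scale. PMVK had 0.66 ± 0.08 (SE, edgeR adjusted p = 2.34e-08) with TMM and SCAP 0.60 ± 0.07 (SE, edgeR adjusted p = 2.06e-08), and FADS2, the delta-6 desaturase, 0.82 ± 0.10 (SE, edgeR adjusted p = 9.57e-08), and with mitochondrial scaling these values were -0.34, -0.40 and -0.18. SCAP was not called without DMSO culture B (0.53), whereas LSS was (0.63), and EBP (0.60) and TM7SF2 (0.61) were called without DMSO culture A. SREBF1 was at 74.4 and 94.2 TPM in DMSO and 55.9 and 52.3 TPM in ARV-771, and SREBF2 at 67.3 and 71.6 TPM against 58.7 and 62.8 TPM. All 8 fatty acid members had a positive log2 fold change with TMM, from 0.22 to 0.82, and all 32 members a negative one with mitochondrial scaling. FASN, at 161 and 156 TPM in DMSO and 141 and 145 TPM in ARV-771, shows the range: 0.46 with TMM, 0.00 with library size and -0.54 with mitochondrial scaling.

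**Figure D4:**
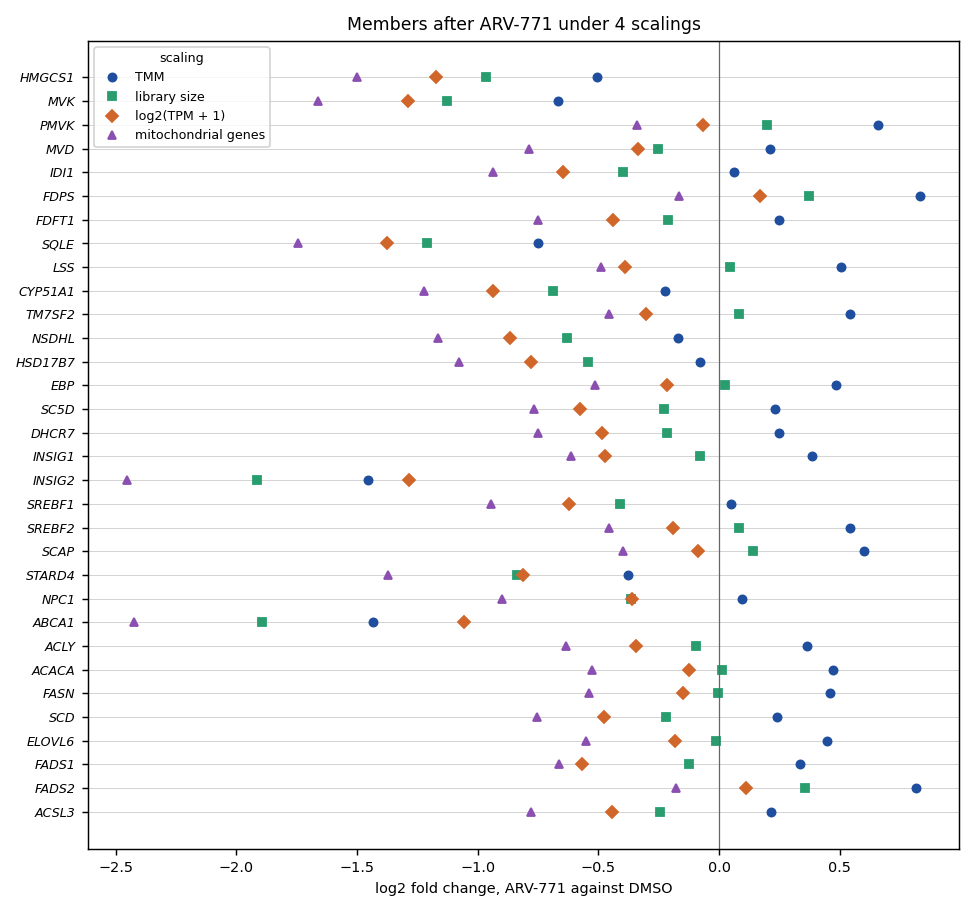
Log2 fold change of the 32 members in ARV-771 against DMSO (x axis) under 4 scalings, TMM, library size, log2(TPM + 1) and mitochondrially encoded genes. Every member lies farther left with mitochondrial scaling than with TMM. SQLE, MVK, INSIG2 and ABCA1, already left of 0 with TMM, stay left of 0 in each scaling.

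Other pathway genes, with TMM, gave 3 higher and 1 lower of 12 on the sterol side and 5 higher and 4 lower of 19 on the fatty acid side. Those with the smallest p were NPC2, the partner of NPC1 in the lysosome, at a log2 fold change of 0.96, the trans-enoyl reductase TECR at 0.82, HSD17B12 at 0.73 and the mitochondrial synthase OXSM at -2.87. OXSM was at 11.9 and 12.99 TPM in DMSO and 1.36 and 1.30 TPM in ARV-771, a larger fall than that of any member with TMM. The squamous marker sum was 7493 to 7763 TPM in DMSO and 7102 to 7413 TPM in ARV-771, but its members went apart, with 3 of 7 called higher and 2 lower with TMM. TP63 was at 145 and 153 TPM in DMSO against 29.6 and 32.3 TPM, SFN was at 446 and 442 TPM against 134 and 135 TPM, and CD68 was at 0.36 to 0.44 TPM against 1.83 to 2.91 TPM. The part of these shifts in the members' values was not tested.

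In SKMES1, where SOX2 stood at 224 and 316 TPM with e1 guides, no member passed the rule. Called were 0 of 24 sterol and 0 of 8 fatty acid members, beside 0.188% of all 14859 genes tested (0.168% higher and 0.0202% lower). An unadjusted edgeR p under 0.05 was reached by 3 of 32 members, ELOVL6, SREBF1 and INSIG1, beside 2109 of all 14859 genes tested. That is a smaller share among the members than among all genes. The exact test of edgeR and DESeq2 each called 1 sterol and 1 fatty acid member, SREBF1 and ELOVL6. Those tests called 3.52% (523 genes) and 2.69% (400 genes) of all genes, and leaving out 1 library moved the 28 genes of the main test to between 1 (without e1 guide 3) and 764 (without the first control), so the background is itself unstable here. SREBF1 was at 25.2 and 19.1 TPM in the control libraries, against 17.6 and 12.5 TPM under e1 guides, without overlap, and its log2 fold change was -0.71 ± 0.15 (SE, edgeR adjusted p = 0.162, DESeq2 adjusted p = 0.0406). ELOVL6 was at 37.3 and 67.3 TPM in the controls, of which the library that stood apart was the higher, and at 28.3 and 34.1 TPM with e1 guides. Its counts in the controls were 848 and 1123, in libraries of 10144325 and 12710128 total counts. For their depth these controls were thus closer in counts, which edgeR and DESeq2 test, than in TPM. The log2 fold change of ELOVL6 was -0.60 ± 0.10 (SE, edgeR adjusted p = 0.129, DESeq2 adjusted p = 0.0142). INSIG1 had -0.59 ± 0.20 (SE, edgeR adjusted p = 0.298). Without the second control the sterol count was 1 (SREBF1), beside 1.72% (262) of all genes, and without the first the fatty acid count was 1 (ELOVL6), beside 4.9%.

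The standard errors were wider than in the other comparisons, with a median of 0.15 over the members against 0.07 to 0.13. The 95% interval for SQLE was -0.44 to 0.21, for HMGCS1 -0.24 to 0.16 and for DHCR7 -0.39 to 0.47, so smaller shifts in either direction were not detectable. Scaling to mitochondrial genes moved the median of genes with at least 50 counts to -0.36 and called SREBF1, INSIG1, SCD and ELOVL6 lower, beside 7.86% of all genes lower. None of the 12 other sterol and 20 other fatty acid genes tested was called by the main rule. The squamous marker sum was 488 and 1914 TPM in the control libraries, against 327 and 499 TPM under e1 guides.

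The widest differences in these genes were between the cell lines, compared on control libraries alone. On the sterol side most genes were lower in SKMES1, and on the fatty acid side 1 gene was. SKMES1 carried CRISPRa and KYSE140 CRISPRi, so the line and the CRISPR system cannot be told apart, and these controls are the ones used for e1 activation and e1 repression. Of 24 sterol members, 15 were lower and 2 higher in SKMES1, and of 8 fatty acid members 1 was lower, beside 55.6% of all 15100 genes tested called (30.4% higher and 25.2% lower). The median log2 fold change was -0.96 for the sterol members, 0.05 for the fatty acid members and 0.05 for all genes tested.

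The enzymes made up most of it. Of the 16, 13 were called lower, and all 16 had a negative log2 fold change, with a median of -1.12. HMGCS1 was at 77.5 and 81.2 TPM in KYSE140 and 40.9 and 30.9 TPM in SKMES1, a log2 fold change of -1.44 ± 0.09 (SE, edgeR adjusted p = 9.1e-05). CYP51A1, the lanosterol demethylase, was at 89.7 and 92.9 TPM against 23.4 and 20.04 TPM, with -2.16 ± 0.11 (SE, edgeR adjusted p = 5.09e-05), although its counts were shared with other genes in all 17 libraries. SQLE was at 73.6 and 74.8 TPM against 40.0 and 31.5 TPM, with -1.09 ± 0.15 (SE, edgeR adjusted p = 0.00132). No library of either line overlapped the other line in these enzymes. MVK had a log2 fold change of -1.92, IDI1 -1.70, SC5D -1.39, MVD -1.21 and TM7SF2 -1.15, and FDPS, EBP, PMVK and HSD17B7 lay between -0.99 and -0.74. HSD17B7 was not called without the first CRISPRi control (-0.67), nor TM7SF2 without either CRISPRi control (-1.16 and -1.15). FDFT1, LSS and NSDHL, which catalyse steps between these, were not called, with -0.34, -0.05 and -0.01.

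DHCR7 stood out, at 739 and 714 TPM in KYSE140 and 60.4 and 46.4 TPM in SKMES1, a log2 fold change of -3.93 ± 0.23 (SE, edgeR adjusted p = 8.2e-05) or 15.2-fold. Its neighbours on chromosome 11 were examined after this value was seen. Of 12 protein-coding genes tested within 1 Mb of it, 4 were lower in SKMES1 and 2 higher, with a median log2 fold change of 0.05. The lower genes were NADSYN1, which adjoins DHCR7, at -1.98, CTTN at -2.34, PPFIA1 at -2.16 and SHANK2 at -2.51. CTTN was at a mean of 708 TPM in KYSE140 and 152 TPM in SKMES1. All 4 lie from chr11:70116796 to chr11:71235153, around DHCR7, and the higher genes, INPPL1 and CLPB, lie beyond chr11:71934745 (GRCh37). DNA copy number was not among the measurements used here, and its part in these levels was not tested.

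The regulators followed no single direction. SREBF2 was at 70.1 and 71.0 TPM in KYSE140 and 24.9 and 18.7 TPM in SKMES1, with a log2 fold change of -1.78 ± 0.16 (SE, edgeR adjusted p = 0.000285). SREBF1 was at 58.8 and 51.2 TPM against 25.2 and 19.1 TPM, with -1.53 ± 0.13 (SE, edgeR adjusted p = 0.000274). Both factors were thus lower in SKMES1 in every library, as most of the enzymes were. INSIG2 was higher, at 6.82 and 6.66 TPM against 12.7 and 12.4 TPM, with 1.26 ± 0.16 (SE), and INSIG1 and SCAP had 0.16 ± 0.19 and -0.03 ± 0.08 (SE). In transport, NPC1 rose from 25.5 and 33.7 TPM to 64.6 and 93.9 TPM, with 1.92 ± 0.17 (SE, edgeR adjusted p = 0.000275), while ABCA1 had 0.40 ± 0.12 (SE, edgeR adjusted p = 0.0306), under the required fold.

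SCD was the 1 fatty acid member that differed, at 143 and 129 TPM in KYSE140 and 56.7 and 41.7 TPM in SKMES1, with a log2 fold change of -1.59 ± 0.18 (SE, edgeR adjusted p = 0.000638). FASN was at 156 and 146 TPM against 172 and 168 TPM, with 0.08 ± 0.10 (SE), and ACLY, FADS1 and FADS2 also had intervals that included 0. Against all 6 KYSE140 control libraries, 19 sterol members and 1 fatty acid member were called, beside 55.7% of all genes. Of the 18 members called here, 13 were called under all 18 alternative settings, and all 18 kept their direction under each. Other pathway genes were more even, with 5 higher and 3 lower of 12 on the sterol side and 7 higher and 3 lower of 20 on the fatty acid side; SOAT1 had a log2 fold change of 2.83, LBR, a second sterol C14-reductase, 1.69, LPIN2 1.62 and ELOVL5 1.59. The squamous marker sum was 7319 to 7364 TPM in KYSE140 and 488 to 1914 TPM in SKMES1, with 4 of 7 markers lower and SFN higher. The leukocyte marker CD68 was at 66.7 to 132 TPM in SKMES1, and the part of these markers in the differences was not tested. Without the first CRISPRa control STARD4 was also called (-0.74), and without the second FADS2 was (0.74).

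**Figure D5:**
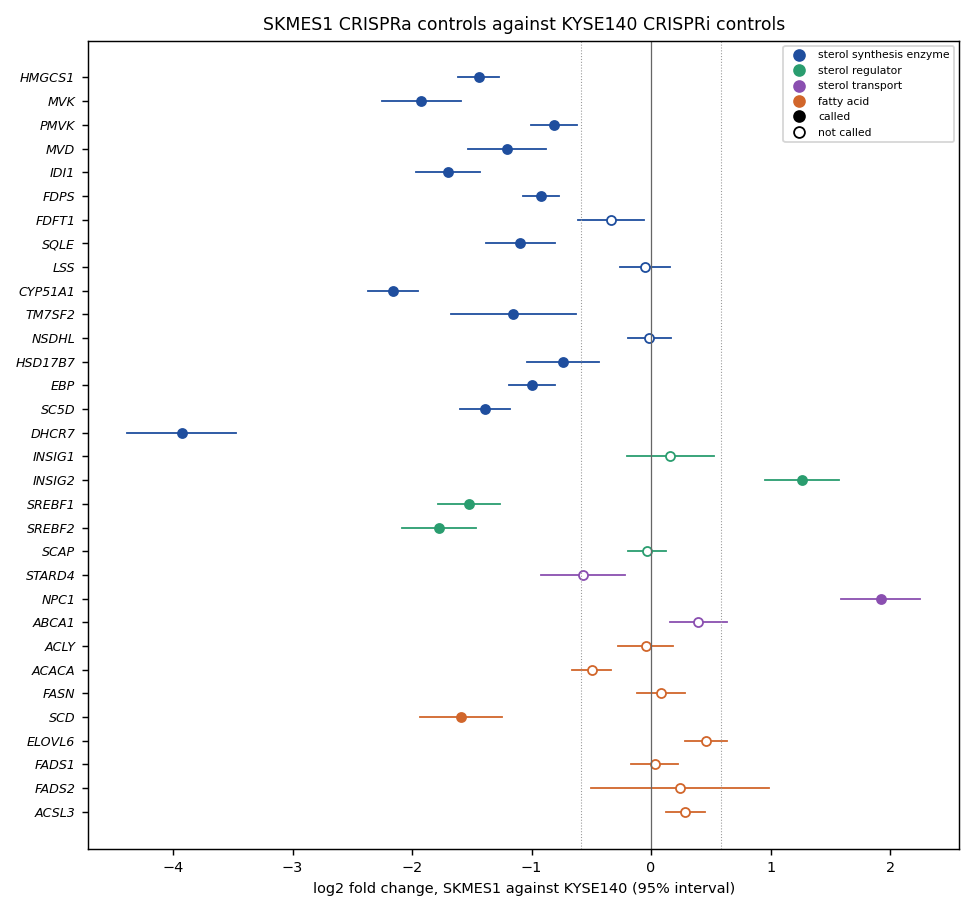
Log2 fold change (x axis) of the 32 members in SKMES1 CRISPRa controls against KYSE140 CRISPRi controls, n = 2 each. Bars are approximate 95% intervals, narrower than the F test implies, colours give the role, filled points passed the rule and dotted lines mark a 1.5-fold change. The sterol enzymes lie left of 0, DHCR7 farthest at -3.93, and the fatty acid genes other than SCD lie between -0.50 and 0.46.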

How the data were processed

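The members, lists, tests and named genes were chosen with earlier results of these data known. Per the study's methods, the authors prepared directional poly-A libraries, aligned reads to hg19 (Bowtie2) and estimated the abundance of GENCODE genes (RSEM), and versions and the strand setting were not given in the sources used here. The deposited expected counts are RSEM's estimated counts per gene, not normalized, and reads with several possible origins are divided between genes, so a count that is not whole marks shared reads. The deposited TPM values were scaled by the authors' RSEM run to transcript length and library, and effective length was estimated per library. A deposited FPKM column was not used here.

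Expected counts were rounded and tested in edgeR 4.0.16 (R 4.3.3) with TMM scaling, filterByExpr (minimum count 10, minimum total 15) and the quasi-likelihood F test on the groups compared, with Benjamini-Hochberg adjustment over all genes tested. The rule for a call was an adjusted p below 0.05 with more than a 1.5-fold change. The SE of a log2 fold change was its size over the root of F, and 95% intervals used the normal approximation. With so few libraries these intervals are narrower than the F test implies, so a bar can exclude 0 without a p under 0.05. In e1 repression the interval of IDI1, -0.269 to -0.0067, excluded 0 at an unadjusted edgeR p of 0.057. TPM served for levels, with SD over libraries. The scripts were tested on simulated counts. Replicate pairs differed by a chi-square of 2.19 to 28.8 per degree of freedom, so none was a duplicate. At these depths 3 counts equal 0.19 to 0.413 CPM, and precision from depth covers counting error only.

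Named genes were HMGCS1, SQLE, INSIG1, SREBF1, SREBF2, ABCA1, FASN and SCD where called, the 3 called sterol and 3 called fatty acid members with the smallest p per comparison, and up to 4 other pathway genes by smallest p. Other members named with values, and ABCG1 in SOX2 knockout, were chosen after their values were seen. Alternatives were other scalings (RLE, library size, 13 mitochondrial genes), filters, tests (edgeR exact, DESeq2 1.42.0, limma 3.58.1 on log2(TPM + 1) or log2(TPM + 0.1) at a mean TPM of at least 1), fold thresholds, all 17 libraries, each library left out and a replicate block. Gene coordinates are GRCh37 from GENCODE, where ACACA had none.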

Additional observations from a re-analysis of the deposited data

Results flagged for a closer look

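Set each against its own controls, e1 repression and SOX2 knockout differed in effect by the full rule, fold change included, for 4 members in the edgeR test of the difference itself. The difference (e1 repression minus SOX2 knockout, log2) was -1.37 for TM7SF2, -0.86 for SREBF1, 0.73 for HSD17B7 and 0.69 for DHCR7. In TM7SF2 the knockout libraries were spread widely, at 12.8, 5.99 and 11.7 TPM, and in SREBF1 the knockout controls, at 30.7 and 27.4 TPM, were below both the CRISPRi and DMSO controls. The counts of HSD17B7 include shared reads. The squamous marker sums given above moved with both perturbations, and their part was not tested. Groups held 2 or 3 libraries, too few for a test of single outlying libraries, although pairs differed in how close they were. Chi-square per degree of freedom was 28.8 between the CRISPRa controls, 13.4 between SOX2 guides 2 and 4 and 13.3 between the e1 activation libraries, against 2.19 to 6.78 for the other pairs.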

How the results depend on the processing

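With no minimum fold change, the sterol and fatty acid members called became 11 and 4 for e1 repression, 15 and 4 for SOX2 knockout and 19 and 8 for ARV-771, the fatty acid members called between cell lines became 4, and 25 members differed among control cultures and 12 between e1 repression and SOX2 knockout. The share of all genes called rose too, to 44.3%, 51%, 75.2%, 67.8%, 44.4% and 27.7% called in that order. With a fold change over 2, sterol counts were 1, 1 and 2 for e1 repression, SOX2 knockout and ARV-771, and fatty acid counts 0 for the latter pair, beside 11.1%, 16.7% and 28.2% of all genes. In limma on log2(TPM + 1), sterol counts were 1 for e1 repression and 11 for ARV-771, beside 14% and 48.9% of all genes called. The ARV-771 fatty acid count was then 0. Among control cultures 5 members differed in that test, beside 11.2% of all genes. With log2(TPM + 0.1) the sterol counts for e1 repression and ARV-771 were 1 and 12, beside 14.1% and 49.6%. For ARV-771, library size scaling gave 0 fatty acid members, and mitochondrial scaling 17 sterol and 4 fatty acid members, beside 47.8% and 67.2% of all genes. For e1 activation, mitochondrial scaling gave 2 and 2, beside 9.11% of all genes. No filter, the edgeR exact test, DESeq2 and the fit of all 17 libraries each gave 1 and 1. Beside these stood 4.6%, 3.52%, 2.69% and 4.76% of all genes, in that order. Leaving out 1 library at a time, the e1 activation counts ranged from 0 to 1 on either side and the fatty acid count between cell lines from 1 to 2 (2 without the second CRISPRa control, when FADS2 was called). The cause of these shifts was not tested.

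Directions of single members reversed only for ARV-771, among members called or, of the 8 always listed, with an adjusted p under 0.05. Library size scaling gave log2 fold changes of -0.0773 for INSIG1, -0.00307 for FASN and -0.22 for SCD. Mitochondrial scaling gave -0.61 for INSIG1, -0.46 for SREBF2, -0.54 for FASN, -0.76 for SCD, -0.40 for SCAP, -0.18 for FADS2, -0.17 for FDPS and -0.34 for PMVK. Limma on log2(TPM + 1) gave -0.47 for INSIG1, -0.19 for SREBF2, -0.15 for FASN, -0.48 for SCD, -0.0887 for SCAP and -0.0667 for PMVK, and on log2(TPM + 0.1) -0.49, -0.19, -0.15, -0.48, -0.0915 and -0.0676 in that order.

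Replicate numbers did not pair the libraries, since same-numbered libraries deviated together with correlations of 0.02 for e1 repression, 0.01 for ARV-771 and 0.05 for the cell lines. The replicate block left the sterol and fatty acid counts at 4 and 1, 7 and 1, and 17 and 1, beside 20.4%, 52.5% and 54.5% of all genes. With 2 libraries in most groups, leaving 1 out leaves an arm whose spread is taken from the other. Shifts of several SE could also go uncalled, since a call needed a 1.5-fold change and an adjusted p under 0.05. In e1 activation ELOVL6, at -0.60 ± 0.10 (SE), was not called.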
